A study of Mus musculus with 4 samples.

Results

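The G1 cyclins and their kinases drive a cell from growth factor signalling into DNA replication. The group held 8 genes: the D cyclins Ccnd1, Ccnd2 and Ccnd3, their kinases Cdk4 and Cdk6, the E cyclins Ccne1 and Ccne2, and the kinase Cdk2. They were found through the RefSeq transcript accession of each probe, which gave 12 of the 55681 probes that are not controls and 8 of the 21154 genes named on the array. Each of 4 groups of cells was hybridised to 1 one-colour Agilent array, and the 4 arrays share 1 slide. Over 2 weeks, mice received either JQ1, which keeps BET proteins off acetylated histones, or its solvent DMSO, and both LSK and MEP fractions were taken. LSK is the marrow fraction without lineage markers that carries Kit and Sca-1 and holds the stem cells, and MEP cells give rise to megakaryocytes and red cells. All 4 groups, the DMSO groups included, carried the genotype JAK2V617F/Ezh2Δ/Δ on the C57BL/6 strain: an activated form of the cytokine receptor kinase JAK2, together with loss of Ezh2, the Polycomb enzyme that methylates histone H3. The marrow came from mice with a floxed Ezh2 gene and the Cre-ERT2 recombinase and was given to wild-type recipients carrying CD45.1 after lethal irradiation. No group without the mutation or with intact Ezh2 was analysed here. The age of the mice, the number pooled for each array and whether the sort also selected donor cells are not given in the sources used here.

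D cyclins are made in response to growth factors and cytokines and bind Cdk4 or Cdk6. The active complexes phosphorylate the retinoblastoma protein Rb, which then releases E2F transcription factors. E2F factors switch on genes of DNA synthesis and the E cyclins, whose complexes with Cdk2 complete the phosphorylation of Rb and start replication. Inhibitors of the INK4 and CIP/KIP families hold these kinases in check. In blood progenitors the 3 D cyclins overlap in function, cyclin D3 is needed for the expansion of early lymphoid cells and for the timing of erythroid divisions, and Cdk6 has a known role in the exit of stem cells from quiescence.

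Levels are given as the log2 of an array's processed signal relative to its own 75th percentile, which was a signal of 210 in LSK with DMSO and 245 with JQ1, and of 327 and 233 in MEP. Between 45.2% and 53.2% of probes were well above background, most of them on DMSO MEP. The DMSO MEP array correlated least with the others, at 0.973 to 0.976 across 23013 probes. JQ1 MEP correlated at 0.979 and 0.982 with the DMSO and JQ1 LSK arrays, and both LSK arrays at 0.991 with each other. Sca-1 (Ly6a) read 4.49 and 4.28 on the DMSO and JQ1 LSK arrays and -0.32 and 0.21 on the MEP arrays, and the erythroid regulator Gata1 read 2.98 and 2.81 against 5.37 and 6.43. All 9 measured erythroid and megakaryocytic markers were 2-fold higher in MEP than in LSK with either treatment. The stem and multipotent markers were mixed: 3 of 10 were 2-fold lower in MEP under DMSO and 5 of 9 under JQ1, while Slamf1, which marks stem cells and megakaryocytic progenitors, was higher in MEP by 2.35 and 1.18, and Mecom was at 0.87 under DMSO. Of 8 B-lineage markers, 7 were nevertheless well above background on every array, and Pax5 was on none. Ezh2 read 3.36 and 3.42 in LSK with DMSO and JQ1 and 3.31 and 3.69 in MEP. Whether its probe lies within the deleted stretch is unknown from the labels, so this reading does not check the deletion.

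Promoter sequences are shown for 3 members: Cdk4, for its repeated E-boxes, and Ccne1 and Cdk2, a cyclin and its kinase whose readings are compared further on. Windows of Ccnd3 and Cdk6 were searched too and are given by their matches. Each is the 250 bases upstream of the gene start, 5′ to 3′ on the gene's strand, from RefSeq on GRCm38.p6. The table held such windows for 5 of the 8 members. Capitals mark the E-box CACGTG in Cdk4, the GC box GGGCGG on either strand in Ccne1, and an E2F site in Cdk2, searched on both strands as TTTCCCGC, TTTGGCGC, TTTCGCGC or TTTGCCGC.
Cdk4 (chr10:127063285-127063534, + strand): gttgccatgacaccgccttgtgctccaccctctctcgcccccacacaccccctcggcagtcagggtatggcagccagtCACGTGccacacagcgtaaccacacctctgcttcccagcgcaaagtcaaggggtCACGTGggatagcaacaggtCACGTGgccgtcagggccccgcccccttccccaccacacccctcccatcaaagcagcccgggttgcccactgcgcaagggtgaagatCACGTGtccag
Ccne1 (chr7:38107491-38107740, - strand): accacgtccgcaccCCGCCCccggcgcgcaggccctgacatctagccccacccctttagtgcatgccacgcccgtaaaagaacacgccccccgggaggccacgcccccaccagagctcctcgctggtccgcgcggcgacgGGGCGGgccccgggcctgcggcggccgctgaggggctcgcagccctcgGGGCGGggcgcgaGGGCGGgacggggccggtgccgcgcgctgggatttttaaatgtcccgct
Cdk2 (chr10:128705052-128705301, - strand): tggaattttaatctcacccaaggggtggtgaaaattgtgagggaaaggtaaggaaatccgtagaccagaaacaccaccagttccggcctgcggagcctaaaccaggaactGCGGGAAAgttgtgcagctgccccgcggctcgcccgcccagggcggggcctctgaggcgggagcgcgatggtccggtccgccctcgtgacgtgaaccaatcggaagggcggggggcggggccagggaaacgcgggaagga
The E-box is the element bound by Myc and Max. It occurred 4 times in the Cdk4 window, at 172, 118, 98 and 11 bases before the start. Of all 32851 windows of this length 6.02% held at least 1 E-box, and 7 held 4 or more. Cdk6 held 1 E-box, and the windows of Ccne1, Cdk2 and Ccnd3 held none. Ccne1 had 4 GC boxes, where 32.7% of all windows had at least 1 and 4.09% had 4 or more, and Cdk2 also had 5. The windows of the 2 Ccnd3 starts had 2 and 1 GC boxes. An E2F word was found 140 bases before the start of Cdk2, in no other window of a member, and in 1.86% of all windows. No 2 matches overlapped in the printed windows. A match describes the letters of a window and does not show binding.

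Of the 8 members, 7 were measured, that is, their brightest probe was well above background on all 4 arrays. Ccne2 was the exception, and its signals of 5.97 with DMSO and 3.50 with JQ1 in LSK, and 9.06 and 15.7 in MEP, were not well above background on any array, so it has no difference here. With 1 array a group there is no replicate and no test. Differences are therefore set against 2 measures of array error. The scanner software's own spot error was 0.20 to 0.21 log2 on each member difference. The spread between different probes of one gene (SD) was 0.26 log2 for the JQ1 difference in LSK and 0.39 for that in MEP. It was 0.37 between the cell types with DMSO and 0.27 with JQ1. Neither covers mice, sorts or RNA amplification. Because the median measured gene itself shifted between arrays, by 0.06, 0.34, -0.22 and 0.07 log2 in these 4 comparisons in turn, every difference is given relative to that median gene and called centred. In sorted cells, a lower reading cannot tell fewer cells that make a transcript from less of it in each cell.

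**Figure D1:**
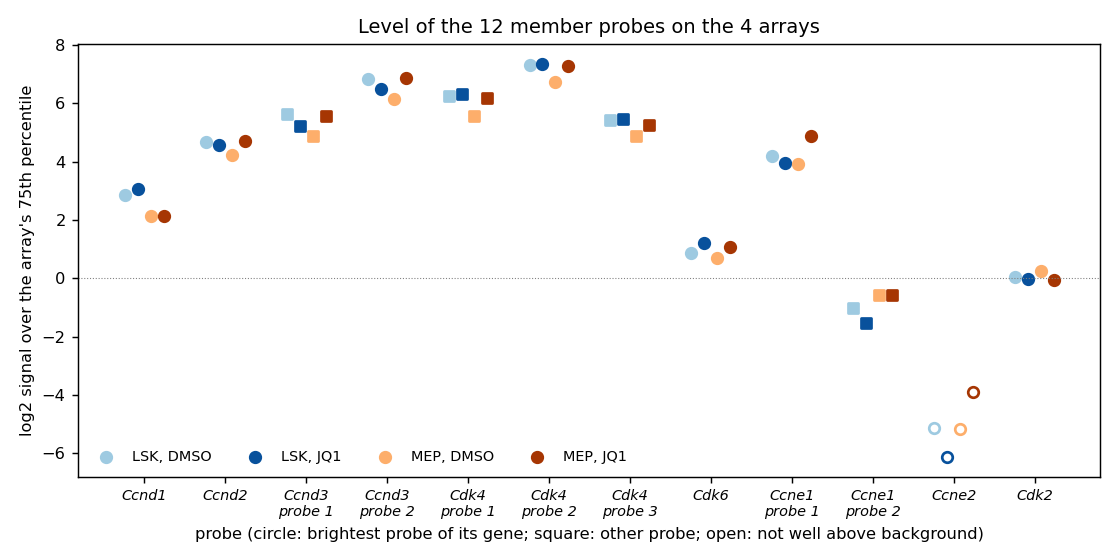
Level of each of the 12 member probes (log2 signal over the array's 75th percentile, vertical axis) for LSK with DMSO and JQ1 and MEP with DMSO and JQ1, 1 point an array. Circles are the brightest probe of a gene, squares its other probes and open symbols readings not well above background, which are those of Ccne2 alone, and heights of different probes are not comparable.

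In the reported setting, no member differed by 2-fold in any of the 4 comparisons of the design. Over the 7 measured members this makes 28 centred differences, of which 0 reached 2-fold and 12 exceeded the spread between probes. Of these 12, 3 stayed beyond it under every one of the alternatives computed: Ccnd1 and Ccne1 for MEP against LSK under JQ1, and Cdk2 for JQ1 in MEP. The other 9 fell inside it under at least 1 alternative. Every alternative was set against the probe spread as reported, since no spread was computed under an alternative. The largest of the 28 was Ccnd1, 1.98-fold lower in MEP than in LSK under JQ1. That difference passed 2-fold under some alternatives. It was -1.05 log2 without the background filter, and -1.02 both among genes above the median signal and centred within 10 signal groups. Of the 3 kept, Ccnd1 and Cdk2 have 1 probe each, so the mean over probes could not set another probe against them. Rescaling an array by 1 number hardly moves a centred value, so those alternatives could not lose a call either. Cdk2 had 8 alternatives, since it was not among genes above the median signal. Among all 12328 genes measured in LSK, 3.76% reached 2-fold with JQ1, 0.543% higher and 3.22% lower. In MEP 6.75% of 12549 genes did, 0.98% higher and 5.77% lower, which is 123 and 724 genes and would be 295 and 478 under quantile normalization. Between the cell types 10% of 12407 genes reached it with DMSO (5.68% higher in MEP, 4.32% lower), and 7.95% of 12262 with JQ1 (3.94% higher, 4.01% lower). A count of 0 among 7 genes lies near these shares.

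Among the D cyclins, Ccnd1 varied most. Ccnd1 encodes cyclin D1, the growth-factor-induced partner of Cdk4 and Cdk6. In LSK it read 2.86 with DMSO and 3.05 with JQ1, and in MEP 2.15 and 2.14, so that both MEP readings lay below both LSK readings. Its centred difference between MEP and LSK was -0.49 log2 under DMSO (1.41-fold lower in MEP) and -0.99 under JQ1 (1.98-fold lower), both beyond the probe spread. The value under DMSO was -0.35, inside it, without the background filter. Under JQ1 4.13% of measured genes lay further down. The JQ1 difference was 0.13 in LSK and -0.35 in MEP, each within the probe spread. Its range over the 4 arrays was 0.97 log2 where the median of the 12016 genes measured on all arrays was 0.53, which left it just under the 1 log2 set for a search of genes with a like profile, so none is named.

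Ccnd2 encodes cyclin D2, a D cyclin induced by cytokines through STAT5. It read 4.67 with DMSO and 4.55 with JQ1 in LSK, and 4.24 and 4.71 in MEP. No centred difference left the probe spread: -0.18 and 0.14 for JQ1 in LSK and MEP, and -0.22 and 0.09 for MEP against LSK under DMSO and JQ1. Its range over the arrays, 0.29 log2, was larger than that of only 16.4% of genes.

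Ccnd3, which encodes cyclin D3, read 6.82 with DMSO and 6.48 with JQ1 in LSK, and 6.14 and 6.88 in MEP. Its readings crossed over, with the DMSO array higher in LSK and the JQ1 array higher in MEP. The centred JQ1 difference was -0.40 in LSK (1.32-fold lower) and 0.40 in MEP (1.32-fold higher). MEP lay below LSK under DMSO (-0.46) and above it under JQ1 (0.33). The second Ccnd3 probe gave -0.48, 0.33, -0.52 and 0.27, the same directions in all 4 comparisons, but its JQ1 difference in MEP and its MEP against LSK difference under JQ1 stayed within the probe spread. The JQ1 difference of Ccnd3 in MEP fell inside the probe spread under 5 of 9 alternatives: 0.14 with quantile normalization, 0.26 centred within 10 signal groups, 0.30 among genes above the median signal, 0.31 without the background filter and 0.35 with normexp. Without that filter its other differences did so too, at -0.26 for JQ1 in LSK, and at -0.32 and 0.26 for MEP against LSK under DMSO and JQ1. So did -0.27 under DMSO with quantile normalization and 0.27 under JQ1 within signal groups.

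A ratio of 2 signals within an array does not depend on scaling that array by 1 number. It does depend on a correction that varies with signal, and the ratios given here carry none. With quantile normalization the centred JQ1 difference in MEP was -0.43 for Ccnd1 and 0.14 for Ccnd3, against -0.35 and 0.40 as reported. The signal of Ccnd1 relative to Ccnd3 was 2.48-fold lower in MEP than in LSK under JQ1 (-1.31 log2), against 1.02-fold lower under DMSO (-0.03). With JQ1, Ccnd1 relative to Ccnd3 was 1.45-fold higher in LSK and 1.68-fold lower in MEP. Relative to Ccnd2 it was 1.24-fold higher and 1.40-fold lower. The ratios show unequal differences of the probes, each from 1 array a group.

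Cdk4 encodes a kinase partner of the D cyclins, and each of its 3 probes read lowest on DMSO MEP. The brightest read 7.31 with DMSO and 7.36 with JQ1 in LSK, and 6.74 and 7.29 in MEP. Relative to the median gene the JQ1 difference was -0.01 in LSK, where the other probes gave 0.01 and -0.03, and 0.21 in MEP, where they gave 0.29 and 0.03. None of the 3 probes of this gene left the probe spread with JQ1. MEP against LSK was -0.36 under DMSO, within that spread, and the others gave -0.47, beyond it, and -0.32. Under JQ1 it was -0.14, and they gave -0.20 and -0.28, the last just beyond it.

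Cdk6, the second kinase of D cyclins, read 0.85 with DMSO and 1.19 with JQ1 in LSK, and 0.70 and 1.08 in MEP, a modest signal on all 4 arrays. It was the only member higher with JQ1 in LSK beyond the probe spread, by 0.28 log2 (1.21-fold), and that spread is 0.26. The value was inside the spread with normexp (0.18) and within signal groups (0.25). In MEP the centred JQ1 difference was 0.05. Between cell types it was 0.06 under DMSO and -0.18 under JQ1.

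Ccne1 encodes cyclin E1, the partner of Cdk2 at the start of S phase and a known E2F target. Its brightest probe read 4.20 with DMSO and 3.95 with JQ1 in LSK, and 3.91 and 4.89 in MEP, so that JQ1 MEP stood above the other three arrays. The centred JQ1 difference was -0.32 in LSK (1.25-fold lower) and 0.65 in MEP (1.56-fold higher), and 96.8% of measured genes lay below the value in MEP. MEP against LSK was -0.08 under DMSO and 0.87 (1.83-fold) under JQ1. The second Ccne1 probe was much dimmer, at -1.02, -1.54, -0.57 and -0.56 on the same arrays. It gave -0.58 for JQ1 in LSK and 0.90 for MEP against LSK under JQ1, alike in direction to the first. For JQ1 in MEP it gave -0.34, inside the probe spread and from readings that were level before centring. For MEP against LSK under DMSO it gave 0.67. The 2 probes thus had opposite signs in both comparisons that use DMSO MEP and the same sign in the others, and the higher Ccne1 in MEP with JQ1 rests on 1 probe. The mean of both probes gave 0.19 there. In LSK the JQ1 difference was inside the probe spread with normexp (-0.21) and without the background filter (-0.18).

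Cdk2, the kinase of the E cyclins, read 0.03 with DMSO and -0.03 with JQ1 in LSK, and 0.26 and -0.05 in MEP. DMSO MEP was the highest array, and the other three lay close together. The centred JQ1 difference was -0.12 in LSK and -0.64 in MEP (1.56-fold lower). MEP against LSK was 0.44 under DMSO, or 0.34 and 0.36, inside the probe spread, with quantile normalization and normexp, and -0.09 under JQ1. With JQ1 in MEP the signal ratio of Ccne1 to Cdk2 was 2.44-fold higher by the brightest Ccne1 probe and 1.24-fold higher by the second, which lay below the median gene as Cdk2 did. This ratio depends on the normalization. With quantile normalization the brightest Ccne1 probe was at 0.44 and Cdk2 at -0.48 there, against 0.65 and -0.64 as reported.

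**Figure D2:**
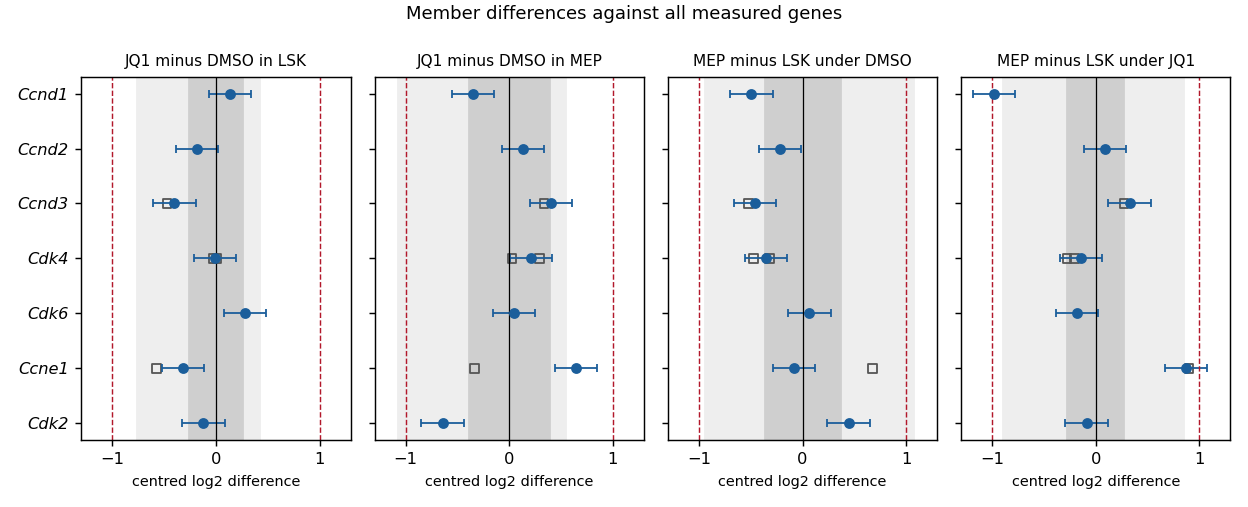
Centred log2 difference (horizontal axis) of the 7 measured members in the 4 comparisons. Circles are the brightest probe with the scanner software's error, squares other probes, the dark band the probe spread (1 SD), the light band the 5th to 95th percentile of all measured genes and dashed lines 2-fold; the 2 Ccne1 probes part in both comparisons that use DMSO MEP.

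By comparison, the median of the 7 members was -0.12 for JQ1 in LSK, where the median of all genes is 0 by construction. Of the 7, 2 lay above the median gene, as 50% of all genes do, and 5 below, and 3 exceeded the probe spread (Cdk6 higher, Ccnd3 and Ccne1 lower), beside 32.9% of all measured genes. In MEP the median with JQ1 was 0.14, with 5 above and 2 below, and 3 beyond the spread (Ccnd3 and Ccne1 higher, Cdk2 lower) beside 33.5% of genes. For MEP against LSK the median was -0.22 under DMSO and -0.09 under JQ1. Beyond the spread under DMSO were Cdk2, higher, and Ccnd1 and Ccnd3, lower, beside 44.5% of genes. Under JQ1 they were Ccne1 and Ccnd3, higher, and Ccnd1, lower, beside 44.7%. A share of 3 in 7 lies near each of these backgrounds, so the counts do not set the group apart. For JQ1 in LSK and for MEP against LSK under DMSO, each of the 3 calls was lost under 1 or 2 alternatives. For JQ1 in MEP Ccnd3 was lost under 5 and Ccne1 under 1. For MEP against LSK under JQ1 Ccnd3 was lost under 2.

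**Figure D3:**
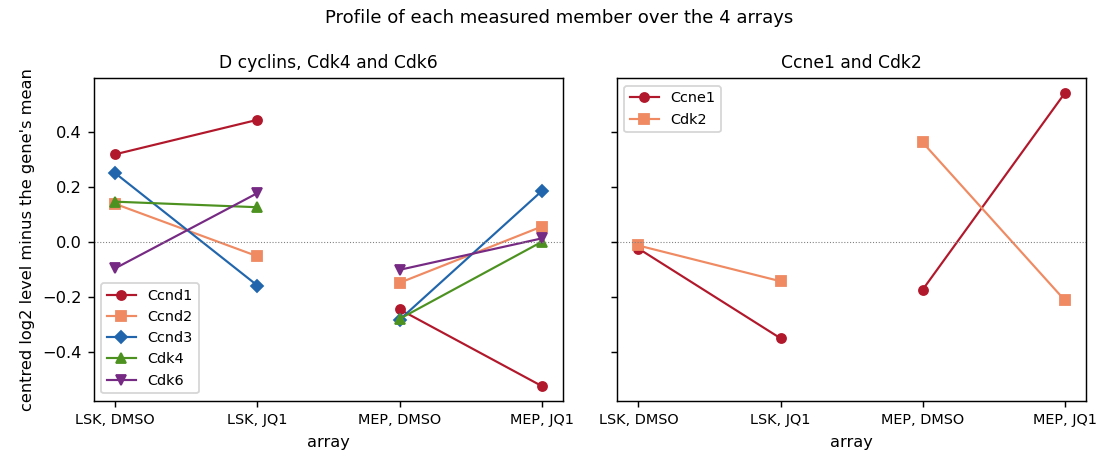
Level of each measured member on the 4 arrays (log2, relative to the median gene of the array and to the gene's own mean over arrays), with a line joining DMSO to JQ1 within a cell type. Ccnd3 and Ccne1 are lower with JQ1 in LSK and higher in MEP, while Ccnd1 is lower on both MEP arrays and Cdk2 is highest on DMSO MEP.

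Setting the JQ1 difference in MEP against that in LSK, the difference between them was 0.96 log2 for Ccne1 and 0.79 for Ccnd3, higher in MEP. It was -0.53 for Cdk2 and -0.49 for Ccnd1, lower in MEP. These 4 of 7 exceeded the probe spread of this double difference, 0.43, as did 34.6% of the 12016 genes measured on all arrays. None reached 2-fold, whereas 9.23% of genes did (3.31% higher in MEP, 5.92% lower). The second Ccne1 probe gave 0.23, inside the spread, and the second Ccnd3 probe 0.80. Cdk2 was inside it with quantile normalization (-0.37), normexp (-0.39) and within signal groups (-0.41). Ccnd2 (0.31), Cdk4 (0.21) and Cdk6 (-0.24) stayed within the spread. All these values take in the DMSO MEP array, and without it none of them can be computed.

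Other readings also differed between the arrays. Immediate early genes, which cells induce within minutes of a stimulus, stood high on DMSO MEP, with a summed level of 438 against 119 to 148 on the other arrays: 9 of 10 were higher by 2-fold there than on DMSO LSK (median 1.57), and 10 of 10 were lower on JQ1 MEP (median -1.75). Differences also varied with signal. For JQ1 against DMSO in MEP, the dimmest of 4 equal signal groups of genes had a centred median of -0.22 and the brightest, which holds Ccnd2, Ccnd3, Cdk4 and Ccne1, one of 0.14. Centred within 10 signal groups, Ccne1 was at 0.48 and Cdk2 at -0.55 there, both still beyond the probe spread. Ccnd3 was at 0.26, inside it, against 0.40 as reported. Cdk4 was at 0.08 against 0.21, and Ccnd2 at -0.03 against 0.14. B-lineage markers, of which all 7 measured were lower by 2-fold with JQ1 in LSK and 6 of 7 in MEP, had a summed level (signal over the 75th percentile) of 190 in LSK with DMSO and 44.9 with JQ1, and of 66.9 and 27.2 in MEP. All 7 granulocytic and monocytic markers on the array were measured and summed to 1198 and 722 in LSK and 913 and 1628 in MEP. Mpo, a granule enzyme, made up most of these sums, with levels of 9.96 (DMSO) and 9.18 (JQ1) for LSK and 9.41 and 10.2 for MEP. With JQ1, 3 of the 7 lay above the median gene in LSK, among them S100a9 at 1.47, and 6 of 7 in MEP, with Itgam at -0.80. The part of these genes in the member differences was not tested.

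Among the 7 inhibitors of the G1 kinases, 2 were higher by 2-fold with JQ1 in MEP, beside 0.98% of all genes, and 2 of 6 measured in MEP against LSK under JQ1, beside 3.94%. Cdkn2a, which encodes the INK4 protein p16 and the p53 activator ARF, read 1.24 with DMSO and 0.84 with JQ1 in LSK, and 1.92 and 3.49 in MEP. Its centred difference was 2.57 for MEP against LSK under JQ1 and 1.23 for JQ1 in MEP, against -0.46 for JQ1 in LSK. Cdkn2b, which encodes the INK4 protein p15, was well above background on the MEP arrays alone, at -1.69 and -0.32, and its centred JQ1 difference there was 1.03. Before centring it was at least 3.24-fold higher in MEP than in LSK under DMSO and at least 11.2-fold under JQ1, taking for the LSK array the larger of its own reading and the lowest reading called well above background. Cdkn1a, the p53-induced inhibitor p21, also reached 2-fold for MEP against LSK under JQ1, with readings of 1.77 and 1.68 in LSK and 1.96 and 2.86 in MEP. The other inhibitors did not reach 2-fold, with Cdkn1c, p57, lowest at -0.89 for MEP against LSK under DMSO. Cdkn1b, p27, the main inhibitor of cyclin E and Cdk2, was at -0.29 with JQ1 in LSK and -0.54 in MEP.

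Downstream, all 13 Rb and E2F genes were measured. With JQ1 in LSK 1 of 13 reached 2-fold, beside 3.76% of all genes. It was E2f5, an E2F of the repressor class, at 1.35, from a dim -2.63 to -1.22. In MEP 0 of 13 reached 2-fold with JQ1, beside 6.75% of all genes. Rb1, the main substrate of these kinases, was at -0.29 in LSK and 0.62 in MEP with JQ1, and was higher in MEP than in LSK by 1.40 under JQ1, while E2f5 was at -1.11 there. The list medians were 0.12 and -0.03 for JQ1 in LSK and MEP, and 0.16 and -0.01 for MEP against LSK under DMSO and JQ1. The activator E2f2 was lowest of the list with JQ1 in LSK, at -0.64.

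S phase genes under E2F control, 20 of 20 measured, had centred medians of 0.10 for JQ1 in LSK and 0.33 in MEP. In MEP 14 lay above the median gene, 9 of them beyond the probe spread, led by the ribonucleotide reductase subunit Rrm1 (0.57). On the lower side 2 lay beyond it, lowest the replication factor Cdc45 (-0.86). Of all measured genes 50% lay above the median gene and 33.5% beyond the spread either way. The brightest of 4 signal groups of genes had a centred median of 0.14 in this comparison, and this list was not centred within signal groups. None of the 20 reached 2-fold with JQ1 in either cell type, beside 3.76% of all genes in LSK and 6.75% in MEP. Between cell types the medians were -0.14 under DMSO and 0.04 under JQ1, and only Orc1, a subunit of the origin recognition complex, reached 2-fold, at 1.02 under DMSO. The mitotic and S phase cyclins with Cdk1, 5 of 7 measured, had medians of 0.08 and 0.31 for JQ1 in LSK and MEP, with the S phase cyclin Ccna2 at 0.55 in MEP. For MEP against LSK the median was -0.41 under DMSO, with the ubiquitin ligase cyclin Ccnf lowest at -0.72, and -0.09 under JQ1.

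Activators and degradation factors of the G1 kinases, 20 of 20 on the array measured, had no gene at 2-fold in any of the 4 comparisons. Of all genes 3.76% to 10% reached it. The medians of this list lay between -0.02 and 0.02. The phosphatase Cdc25a, which activates Cdk2, was highest with JQ1 in MEP (0.56) and the ubiquitin ligase subunit Fbxo31 lowest (-0.58). Cyclins and kinases outside the cell cycle core, 24 on the array, had medians of 0.02 and 0.07 with JQ1 in LSK and MEP. Of the genes measured on both arrays only Ccnl1, a cyclin of RNA splicing, reached 2-fold with JQ1, at -1.51 in MEP, and Ccnl2, its relative, was at 1.14 for MEP against LSK under DMSO. Under JQ1 Ccng1, a p53 target, was at 1.29 and Ccno, a cyclin of multiciliated cells, at 1.38 for MEP against LSK. The elongation factor cyclin Ccnt2, at -0.77 with JQ1 in LSK, was not well above background on JQ1 MEP and was at least 2.50-fold lower before centring with JQ1 in MEP.

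**Figure D4:**
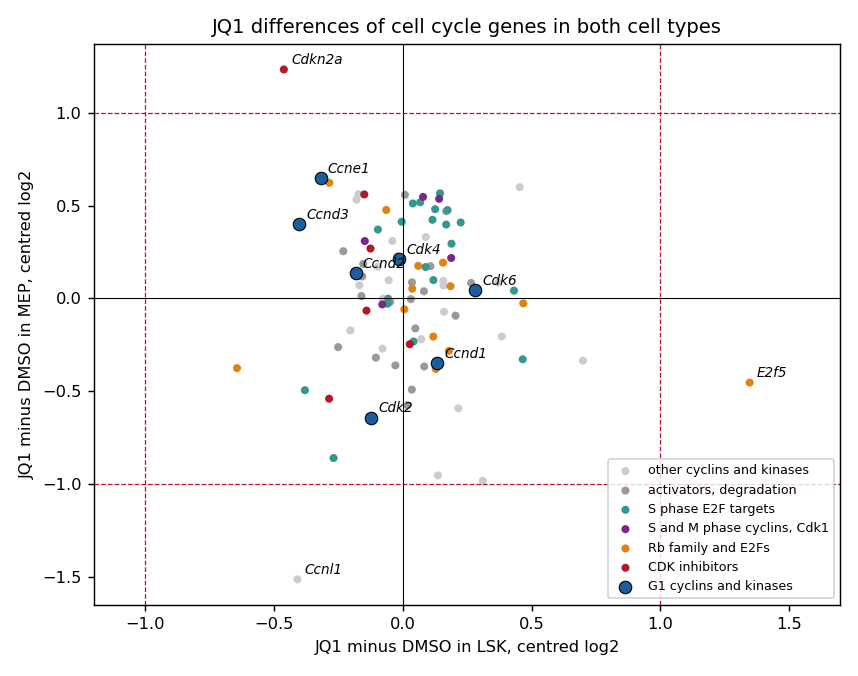
Centred log2 difference of JQ1 against DMSO in LSK (horizontal axis) and in MEP (vertical axis) for measured genes of the 8 cell cycle lists, 1 point a gene, with dashed lines at 2-fold. The large points are the 7 measured members, all inside the 2-fold lines, while Cdkn2a (-0.46, 1.23), E2f5 (1.35, -0.45) and Ccnl1 (-0.41, -1.51) lie outside. Genes without a difference in both cell types are not drawn, among them Cdkn2b (1.03 in MEP) and Ccnt2 (-0.77 in LSK).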

How the data were processed

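Gene expression was measured on 4 one-colour arrays (Cy3, 20 ng of total RNA, Low Input Quick Amp labelling, per the labels' protocols). The authors read them out in Feature Extraction 10.7.1.1 under protocol GE1_107_Sep09, per the file headers, for design 028005 annotated on mm9. The deposited scanner files hold per spot a processed signal, an intensity after background subtraction and detrending, its error, and spot and background medians, also intensities. The authors' deposited value table is a ratio to the array's 75th percentile: for values above 1 it was within 1% of the scanner signal divided by 1 constant in all probes, and dimmer values were not checked.

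Log2 processed signals were averaged over a probe's spots without outlier marks and expressed over the 75th percentile of all probes of that array. Of 55681 probes, 28026 (50.3%) received 1 symbol through RefSeq accessions (GRCm38.p6) and 27655 none. A gene was represented by its brightest probe. It counted as measured when that probe was well above background on both arrays, and as called at a centred 2-fold. Genes are named by symbol without positions because builds differ. The members and lists were chosen with earlier results of these data known. Named genes are the members, list genes at 2-fold in any comparison, and otherwise a list's highest or lowest. The 9 alternatives were scaling to the median or the spike-in probes, quantile normalization, normexp (limma 3.58.1, offset 50, on spot medians since no mean signal is in the files used), the deposited table, the mean over probes, no background filter, genes above the median signal, and, added after the data were seen, centring within 10 signal groups. The computation was tested on simulated data. Python 3.11.15, pandas 2.3.3 and R 4.3.3 were used. No spot was saturated, and the number of arrays limits the precision.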

Additional observations from a re-analysis of the deposited data

Results flagged for a closer look

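Ccnd3 and Ccne1 lay on opposite sides of the median gene with JQ1 in the 2 cell types, each beyond the spread between probes as reported. Ccnd3 was at -0.40 in LSK and 0.40 in MEP, and Ccne1 at -0.32 in LSK and 0.65 in MEP (centred log2). The difference was not tested, since each group has 1 array. The second Ccnd3 probe gave the same signs (-0.48 and 0.33, the latter inside the spread). The second Ccne1 probe lay below the median gene in both cell types (-0.58 and -0.34, the latter also inside the spread). Before centring, that dim probe read level in MEP, at -0.57 with DMSO and -0.56 with JQ1. These calls are not stable: Ccnd3 in MEP exceeded the spread by 0.399 against 0.391 and fell inside it under 5 of 9 alternatives (0.14 to 0.35), and Ccnd3 in LSK under 1 (-0.26). Ccne1 fell inside it in LSK with normexp (-0.21) and without the background filter (-0.18), and in MEP with the mean over probes (0.19).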

How the results depend on the processing

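No paired analysis was possible because each group has 1 array, and leaving out an array leaves no comparison. Rescaling an array by 1 number, to the median, the spike-in probes or in the deposited table, hardly moves a centred value, but with spike-in scaling the median gene lay between -0.52 and 0.91 log2 in the 4 comparisons. The number of all genes at 2-fold was 464, 847, 1241 and 975 as reported for JQ1 in LSK and MEP and for MEP against LSK under DMSO and JQ1. It was 181, 362, 645 and 539 with normexp, 1993, 2902, 3362 and 2895 without the background filter, and 75, 172, 343 and 260 among genes above the median signal. Of the values of single members under the 9 alternatives, 304 moved by less than the probe spread and 1 by more, Ccne1 with JQ1 in MEP, at 0.19 with the mean over probes. The sign turned under some alternative for 7 of the 28 member differences, of which 0 exceeded the probe spread as reported. Of 12 member differences beyond the probe spread, 9 fell inside it under at least 1 alternative and 3 under none. The spread was always that of the reported setting, also for normexp, which made differences smaller over all genes. The number of members at 2-fold for MEP against LSK under JQ1 was 0 as reported, 1 among genes above the median signal and 1 with centring within 10 signal groups, which is Ccnd1 at -1.02 in both. It was 2 without the background filter, where Ccnd1 read -1.05 and Ccne2, not well above background, was counted too. The count was 0 under every alternative in the other 3 comparisons. Member medians ranged from -0.21 to -0.01 for JQ1 in LSK, from -0.01 to 0.17 in MEP, from -0.32 to -0.002 for MEP against LSK under DMSO and from -0.09 to 0.05 under JQ1, so that the sign turned in MEP and in MEP against LSK under JQ1. Ccne1 for MEP against LSK under DMSO ranged from -0.08 to 0.28.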
